A study of Mus musculus with 13 samples.

Results

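Oligodendrocyte precursor cells (OPC) of the mouse medial amygdala were examined in single-cell RNA profiles from 6 male and 7 female libraries. The members were the cells that the authors' table of all cells assigns to the class OPC and in which at least 500 genes were detected. They numbered 4202 of the 43388 deposited cells. A doublet caller marked 39 of them, and the remaining 4163 OPC, 16.97% of the 24527 cells kept over the 8 author classes, were used below. All animals were naive C57BL/6J mice kept singly under a reversed light cycle, with no further allele or treatment named. The male libraries 3 and 5 and the female library 3 were from 8-week-old mice and the remaining 10 libraries from 9-week-old mice. The tissue was dissociated by Act-seq, a protocol with transcription inhibitors, and cells were captured with Drop-seq, which counts the 3′ ends of transcripts as unique molecular identifiers (UMIs). The labels name separate samples and do not tie a library to an animal, so p-values measure the spread between libraries, which may be technical.

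OPC are the dividing, migratory glia of the adult brain from which oligodendrocytes arise, and they form a stable population into adult life. They respond to platelet-derived growth factor through PDGFRA, carry the NG2 proteoglycan encoded by Cspg4, and receive synapses from neurons. On leaving the cell cycle they pass through a committed stage marked by Gpr17 before they form myelin.

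Each library held 179 to 440 OPC, and the summed OPC counts per library ran from 534530 to 1231288 UMIs. The median OPC had 2669 UMIs and 1757 detected genes. Of the deposited OPC, 1024 had fewer than 500 genes. The 188 OPC just inside that limit, with 500 to under 600 genes, had 3485 CPM (counts per 1000000 UMIs) of Pdgfra, and the 236 just outside it, with 400 to under 500 genes, had 3232 CPM. Between libraries 19 cell barcodes were shared, 5 of them in OPC. Levels below are CPM of all UMIs of a class in a library, given as mean ± SD over 13 libraries. Because the authors' classes were themselves derived from expression, the comparison of OPC with other classes is a description and carries no test. Fold values against other classes are on a log2 scale with 5 CPM added, which understates the folds of low genes. Levels were compared for a gene between classes, not between genes.

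Markers of the class followed its label. Pdgfra, the receptor for platelet-derived growth factor, ran from 2577 CPM in the lowest library through a median of 3014 to 3433 CPM in the highest. Its next class was mural cells at 171 CPM, a log2 fold of 4.10. At a fixed depth of 1000 UMIs per cell, 93.1% of OPC had a Pdgfra UMI, against 5.67% of newly formed oligodendrocytes, 1.10% of astrocytes, 1.13% of neurons and 0.675% of oligodendrocytes. Without thinning the OPC share was 97.3%. Every library thus held OPC with Pdgfra far above any other class. Cspg4, the NG2 proteoglycan, had a lowest, median and highest level of 659, 884 and 1138 CPM, and it was 498 CPM in mural cells, which also carry NG2. C1ql1, a secreted ligand of adhesion receptors, ran from 484 through 547 to 703 CPM, against 167 CPM in newly formed oligodendrocytes. The lineage transcription factors were shared more widely. Olig1 was 3612 ± 273 CPM in OPC and 1553 CPM in oligodendrocytes, and Olig2 was 1334 ± 110 CPM in OPC and 700 CPM in newly formed oligodendrocytes. All 5 were highest in OPC in 13 of 13 libraries, where 22.8% of the 8642 genes at 20 CPM or more in OPC were highest in that class and 3.51% were so in every library.

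**Figure D1:**
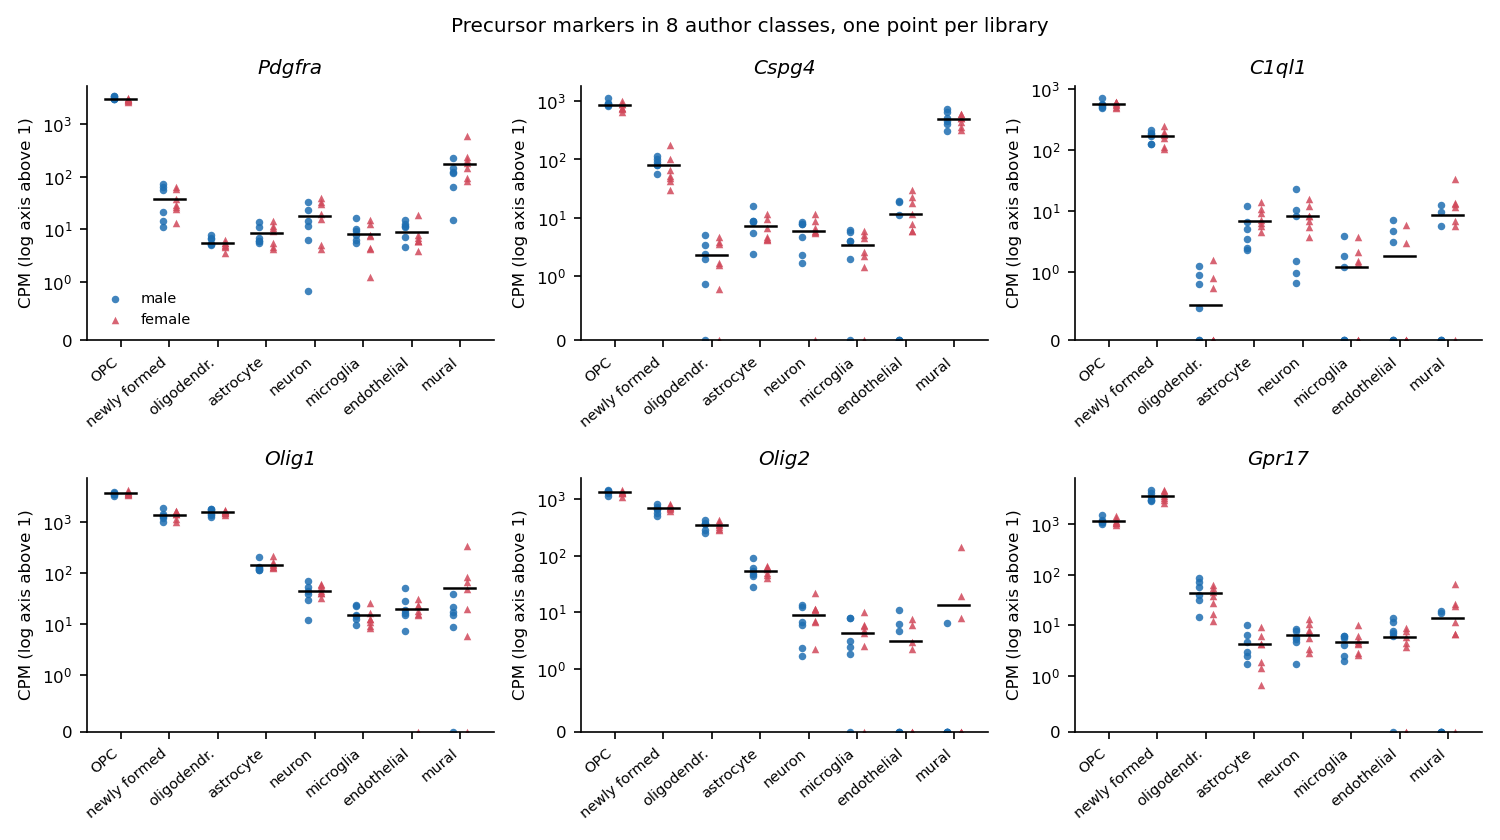
CPM of Pdgfra, Cspg4, C1ql1, Olig1, Olig2 and Gpr17 in each author class, on an axis that is logarithmic above 1; each point is a library with at least 10 cells of the class, circles are male, triangles female, and lines are means. Pdgfra stands at 2577 to 3433 CPM in OPC, and Gpr17 is higher in newly formed oligodendrocytes, at 3695 CPM, than in OPC, at 1179 CPM.

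A few cells of the class did not carry its markers. Among the 4163 OPC, 28 had at least 10 UMIs of 12 microglial marker genes. Their median was 100.5 such UMIs, and the median of the 5 precursor markers summed was 0 UMIs, against 25 in the other OPC. A Pdgfra UMI was found in 5 of the 28, and 24 of the 28 had 2 or more UMIs of a list of 40 proliferation genes. They came from 9 libraries, 12 cells from males and 16 from females, with at most 7 in a library. Another 1204 OPC had 1 to 9 microglial UMIs, 14 of them 5 to 9. The cells were kept because the class was given by the authors' names, and counts of list members highest in OPC, of proliferating cells and of genes that differed by sex are also given without them where they changed. Over the whole microglial list no gene was at 0, and the summed level was 116 to 717 CPM in males and 116 to 960 CPM in females. Without the 28 cells these ranges became 102 to 148 CPM and 116 to 169 CPM. Astrocyte markers summed to 2026 CPM in OPC, 5.07% of their level in astrocytes, neuron markers to 1214 CPM, 7.22% of their level in neurons, and endothelial markers to 0.21% and oligodendrocyte markers to 0.253% of their own class. No gene of these lists was at 0.

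The genes with the largest folds of OPC over the next class joined surface and matrix genes with transcription factors and the machinery of division. In all, 190 genes, 2.2% of the 8642, were at least 2-fold above every other class, and leaving out the 28 cells gave 186, of which 182 were shared. Rlbp1, a binding protein for retinaldehyde best known from the retina, led the list. It ran from 442 CPM in the lowest library to 723 CPM in the highest, and its next class was astrocytes at 23.2 CPM, a log2 fold of 4.36. Cdo1, cysteine dioxygenase, which opens the route from cysteine to taurine, was 723 ± 47.0 CPM against 36.6 CPM in neurons. Sapcd2, a regulator of spindle orientation, was 125 ± 20.6 CPM against 1.52 CPM in newly formed oligodendrocytes. Every library's OPC lay above the mean of the next class for each of the 3, although Rlbp1 and Sapcd2 spread between libraries. Mmp15, a membrane-bound metalloproteinase, was 210 ± 32.6 CPM against 13.8 CPM in mural cells. Emid1 was 323 ± 31.4 CPM, Pcdh15, a protocadherin, was 473 ± 29.8 CPM, and Megf11, a transmembrane protein of cell spacing, was 288 ± 28.7 CPM, each under 50 CPM in the next class, newly formed oligodendrocytes. C1ql2, a relative of C1ql1, was 128 ± 21.1 CPM against 3.67 CPM in neurons. Rlbp1, Cdo1, Sapcd2, Mmp15, Emid1, Pcdh15, Megf11 and C1ql2 were highest in OPC in 13 of 13 libraries. Genes of division ranged more. Top2a, topoisomerase of mitotic chromosomes, ran from 12.2 CPM in female 7 to 117 CPM in female 5, and Mki67, a marker of cycling cells, ran from 5.24 to 105 CPM. Prc1, of the central spindle, was highest in OPC in 12 of 13 libraries.

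**Figure D2:**
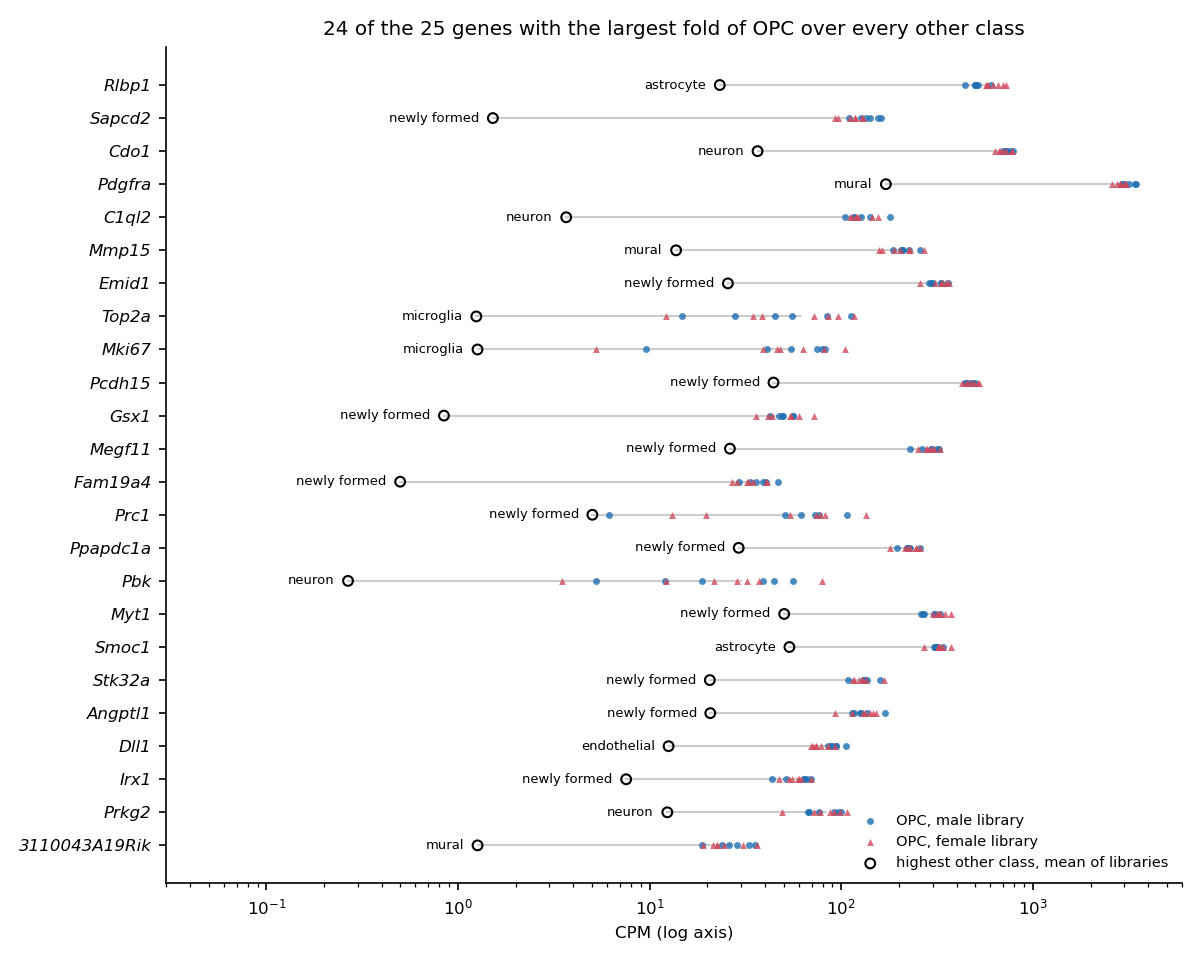
From the 25 genes with the largest fold of OPC over the next class, 24 are drawn, as CPM on a logarithmic axis; filled points are OPC of single libraries, open circles the mean of the next class, which is named. For Rlbp1 the OPC libraries stand at 442 to 723 CPM and astrocytes at 23.2 CPM, while Top2a spreads from 12.2 to 117 CPM over the libraries.

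Of 39 transcription factors of the lineage, 31 reached 20 CPM in OPC. Of these, 11 (35.5%) were highest there, against 22.8% of all genes, and 7 (22.6%) at least 2-fold above every other class, against 2.2%. Another 10 (32.3%) were at most 50% of the next class, against 27.1%. Myt1, a zinc finger factor, had a lowest, median and highest level of 262, 316 and 376 CPM, against 50.4 CPM in newly formed oligodendrocytes. Etv4, a factor downstream of growth factor signalling, was 174 ± 23.3 CPM against 38.3 CPM in astrocytes. Both were higher in OPC than in every other class in 13 of 13 libraries. The homeobox gene Gsx1 was 50.9 ± 9.39 CPM and under 1 CPM in newly formed oligodendrocytes, its next class. Sox10, which directs oligodendrocyte fate, differed little from newly formed oligodendrocytes, at 480 to 620 CPM in OPC libraries (median 582 CPM) against 531 CPM. Factors known from astrocytes were low: Sox9 was 3.83 ± 2.48 CPM in OPC and 874 CPM in astrocytes, and Id4 was 10.2 ± 3.10 CPM against 702 CPM. The median log2 fold of the list over the next class was -0.77, against -0.44 over all genes.

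Genes of the committed stage were present below the level of newly formed oligodendrocytes, the class the authors' names place between precursor and mature cell. None of the 12 list members at 20 CPM or more was highest in OPC, and 11 were at most 50% of the next class, against 27.1% of all genes. Gpr17, a receptor of the stage between precursor and myelinating cell, was 983 CPM in the lowest OPC library and 1505 CPM in the highest, and 3695 ± 766 CPM in newly formed oligodendrocytes. Neu4, a sialidase, was 368 ± 43.7 CPM against 688 CPM, Tnr, the matrix protein tenascin R, was 275 ± 17.7 CPM against 700 CPM, and Itpr2, a calcium release channel, was 250 ± 21.7 CPM against 760 CPM. The final genes of that stage were nearly missing from OPC. Bmp4 was 0.50 CPM in OPC and 628 CPM in newly formed oligodendrocytes, and Enpp6, a choline phosphodiesterase, was 0.70 CPM against 1484 CPM. All 10 myelin genes at 20 CPM or more were at most 50% of the next class, with a median log2 fold of -5.65. Cnp was 148 to 222 CPM over the OPC libraries against 5831 CPM in oligodendrocytes, and Cldn11, the claudin of myelin, was 9.83 CPM against 6025 CPM.

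A direct comparison with newly formed oligodendrocytes covered 5718 genes at 50 CPM or more in either class. Of these, 904 (15.8%) were at least 2-fold higher in OPC and 480 (8.39%) were at most 50% of the newly formed level (907 and 476 without the cells rich in microglial UMIs). After Pdgfra, with a log2 fold of 6.14, the genes furthest above were Cspg5, Ccnd1, Kcnip3 and Etv5. Cspg5, neuroglycan C, was 2240 ± 215 CPM in OPC and 50.6 CPM in newly formed oligodendrocytes. Ccnd1, the cyclin of the passage from G1 to S phase, was 690 CPM against 15.0 CPM. Kcnip3, a calcium-binding partner of potassium channels, was 638 ± 68.5 CPM against 15.0 CPM. Hes5, a target of Notch, was 331 ± 43.9 CPM against 7.51 CPM. Both classes share the lineage, and these genes stood on the precursor side. Cspg5 was also 863 CPM in astrocytes and Hes5 was 584 CPM there, so neither separated OPC from astrocytes in that way.

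Of 53 proteoglycan and matrix genes, 39 reached 20 CPM. Of these, 18 (46.2%) were highest in OPC, 10 (25.6%) were at least 2-fold above every other class and 15 (38.5%) were at most 50% of the next class, against 22.8%, 2.2% and 27.1% of all genes. Ptprz1, a receptor phosphatase that carries chondroitin sulfate, was 3318 ± 228 CPM against 1254 CPM in astrocytes. Matn4, a matrilin, was 685 ± 52.8 CPM against 167 CPM in newly formed oligodendrocytes. Mmp16, a membrane-bound metalloproteinase, was 273 ± 39.8 CPM, and Chst11, which sulfates chondroitin, was 222 ± 29.8 CPM, with neurons the next class for both at 63.0 and 57.9 CPM. Not every matrix gene followed: Bcan, brevican, was 1614 ± 114 CPM in OPC and 1593 CPM in newly formed oligodendrocytes. Among 70 adhesion and synapse-organising genes at 20 CPM or more, 27 (38.6%) were highest in OPC, 5 (7.14%) at least 2-fold above every other class and 24 (34.3%) at most 50% of the next class.

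Of 22 glutamate receptor genes at 20 CPM or more, 8 (36.4%) were highest in OPC, 1 (4.55%) was at least 2-fold above every other class and 7 (31.8%) were at most 50% of the next class, against 22.8%, 2.2% and 27.1% of all genes. Without the cells rich in microglial UMIs, 9 were highest in OPC. Their median log2 fold over the next class was -0.39, against -0.44 over all genes. Cacng4, an auxiliary subunit of AMPA receptors, had a lowest, median and highest level of 1287, 1706 and 1855 CPM, against 335 CPM in newly formed oligodendrocytes. Gria4, a pore subunit of the same receptors, was 545 ± 30.9 CPM against 311 CPM in neurons. Grin3a, an NMDA receptor subunit, was 275 ± 26.3 CPM against 218 CPM in neurons and was highest in OPC in 12 of 13 libraries. Other subunits were higher in neurons. Grin2b, of NMDA receptors, was 4.57 ± 2.90 CPM in OPC and 686 CPM in neurons, and Gria2, of AMPA receptors, was 1577 ± 155 CPM in OPC against 3402 CPM. None of the 14 GABA receptor and transport genes at 20 CPM or more was highest in OPC, and all 14 were at most 50% of the next class. Gabra3, a receptor subunit, was 188 ± 27.3 CPM against 544 CPM in neurons. Among 33 ion channel genes at 20 CPM or more, 8 (24.2%) were highest in OPC, 16 (48.5%) at most 50% of the next class and 4 (12.1%) at least 2-fold above every other class. These 4 were Cacng4, which is in both lists, Kcnip3 (174 CPM in astrocytes), Kcnmb4 (80.2 ± 9.75 CPM against 23.9 CPM in neurons) and Kcnk10, a potassium leak channel (44.1 ± 9.78 CPM against 12.7 CPM in neurons).

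Of 23 growth factor receptor genes at 20 CPM or more, 6 (26.1%) were highest in OPC, 11 (47.8%) at most 50% of the next class and 3 at least 2-fold above every other class. Besides Pdgfra these were Adora1, an adenosine receptor placed in the same list (336 ± 41.1 CPM against 149 CPM in oligodendrocytes), and Gfra1, a co-receptor for GDNF (252 ± 32.6 CPM against 116 CPM in newly formed oligodendrocytes). Of 14 ligand genes, 1 (7.14%) was highest in OPC. That gene, Nrg1, a neuregulin, was 20.1 ± 3.53 CPM. Of 28 genes of the Notch, BMP, Wnt and Hedgehog pathways, 4 (14.3%, or 5 without the cells rich in microglial UMIs) were highest in OPC, against 22.8% of all genes. The Notch ligands Dll1 and Dll3 were 84.8 ± 10.8 and 86.6 ± 10.8 CPM in OPC, against 12.6 CPM in endothelial cells and 13.3 CPM in newly formed oligodendrocytes. Of the 28, 12 (42.9%) were at most 50% of the next class, against 27.1%.

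Of 40 proliferation genes, 38 were highest in OPC by mean level (37 without the cells rich in microglial UMIs), against 2867 of all 16961 genes. Only 19 of the 40 reached 20 CPM in OPC, a limit set in OPC itself, and the other 21 were at most 18.6 CPM. Of the 19, 18 were highest in OPC and 13 were at least 2-fold above every other class, which became 15 and 9 of 16 without the cells rich in microglial UMIs (over all genes 22.8% and 2.2%). In single cells, 920 OPC (22.1%, exact binomial interval 20.9 to 23.4%) had 2 or more UMIs of the list, where 377 stood exactly at 2 and 928 had 1, and 896 (21.7%) without the cells rich in microglial UMIs. The share without thinning was 22.7% in newly formed oligodendrocytes, whose cells differ in depth. At 1000 UMIs per cell it was 8.88% in OPC and 1.89% in newly formed oligodendrocytes, 2.19% in microglia, 3.05% in endothelial cells, 1.35% in oligodendrocytes and 0.988% in astrocytes. All intervals cover counting error only. At 10 or more UMIs there were 143 OPC (3.43%), 9 microglia, 4 neurons and 1 oligodendrocyte, and 120 of the 143 remained once the cells with 10 or more microglial UMIs were left out. Without those cells Top2a had a log2 fold of 3.13 over the next class, in place of 3.41.

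Ranges of cells within the class were compared after thinning 3670 OPC to 1000 UMIs, with shallower OPC left out. The ranges are not cell types, and the values are descriptions. In 15.5% of these OPC Gpr17 had 3 or more UMIs, with 321 exactly at 3 and 648 at 2, and 19 of them were also in the proliferating range of 326. The cells with 10 or more microglial UMIs were left out of what follows, and none of them was Gpr17-rich. The Gpr17-rich cells had lower Top2a, at 3.27 against 41.0 CPM, and lower Pcna, the replication clamp, at 73.5 against 136 CPM, each higher in 1 of 13 libraries. Bcas1, a gene of early myelinating cells, was 552 ± 139 against 411 ± 51.7 CPM, higher in 11 of 13 libraries. Pdgfra was 3445 against 3054 CPM, higher in 12. No UMI of Enpp6 or Bmp4 was found in the Gpr17-rich cells. The rest had only 0.643 and 0.330 CPM of them, too little for this absence to set the range apart. The proliferating range then held 302 cells against 3340. There, Ccnd1 was 831 against 672 CPM, higher in 13 of 13 libraries, and Pdgfra was 3073 against 3116 CPM, higher in 5. The other precursor markers were lower: C1ql1 was 316 against 593 CPM (higher in 1 of 13 libraries), Cspg4 745 against 924 CPM (higher in 2), Olig1 3282 against 3657 CPM (higher in 3) and Olig2 1103 against 1345 CPM (higher in 0). Genes of the committed stage were lower too, Gpr17 at 811 against 1294 CPM and Neu4 at 201 against 372 CPM, each higher in 1 of 13 libraries. In both ranges the median number of microglial and oligodendrocyte marker UMIs per cell was 0 and that of astrocyte marker UMIs was 2, as in the rest. Before the microglial cells were left out, the proliferating range held a mean of 2.98 microglial UMIs per cell, against 0.14 in the rest.

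The share of OPC among all kept cells was compared between sexes with an exact two-sided permutation test over the 1716 ways to assign 6 of 13 libraries, whose smallest p is 5.83e-04. In bulk sums or shares of dissociated cells, fewer cells of a class and cells lost in dissociation cannot be told apart. In males the share ran from 13.5% to 21.2% (16.7 ± 2.76%, SD, n = 6), and in females from 14.2% to 20.4% (17.3 ± 2.38%, SD, n = 7). The ranges overlapped and the difference of -0.59 percentage points did not pass (exact permutation p = 0.679, adjusted over 3 tests 0.728). Proliferating OPC, by 2 or more UMIs, were 19.9% to 21.9% in males and 17.1% to 28.1% in females. The means were 20.7 ± 0.709% and 23.5 ± 3.56%, and the difference of -2.82 points did not pass (exact permutation p = 0.0903, adjusted 0.271). This value leaned on a library: without female 6 it was -3.90 points (exact permutation p = 0.00217), and at 1000 UMIs per cell it was -0.17 points (exact permutation p = 0.897). Without the cells rich in microglial UMIs it was -2.72 points (exact permutation p = 0.119). Newly formed oligodendrocytes per OPC were 0.116 ± 0.0338 in males and 0.109 ± 0.0401 in females (exact permutation p = 0.728).

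**Figure D3:**
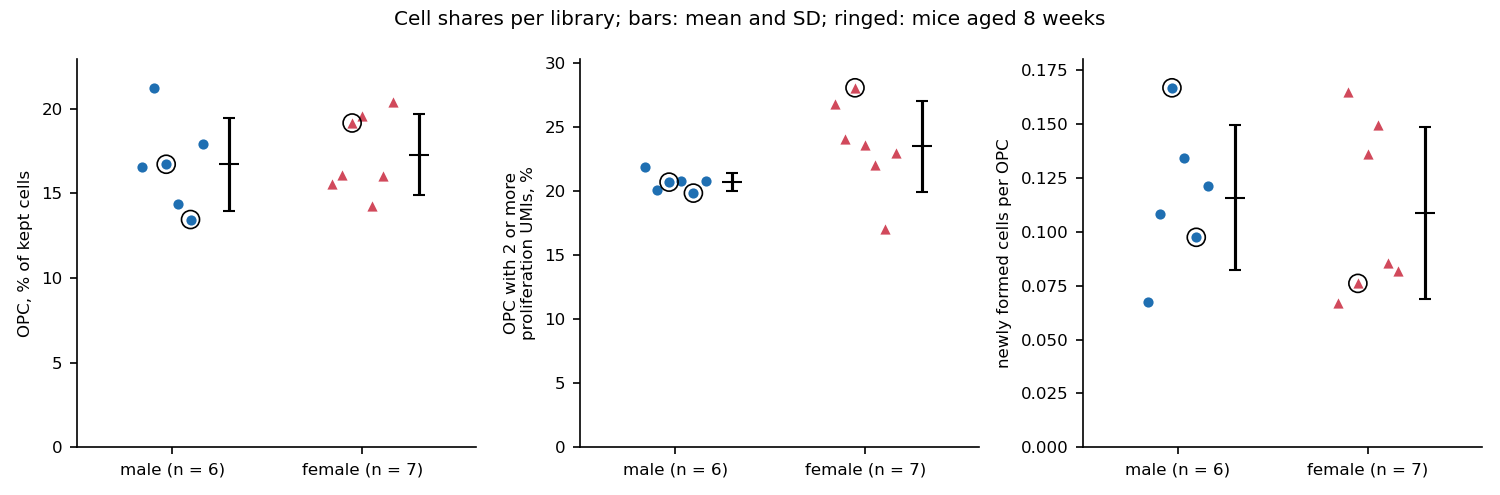
Per library, OPC as a percent of kept cells, OPC with 2 or more proliferation UMIs as a percent of OPC, and newly formed oligodendrocytes per OPC; bars are mean and SD, rings mark mice aged 8 weeks. Male and female libraries overlap in all 3 measures, and the female proliferating share spreads from 17.1% to 28.1% against 19.9% to 21.9% in males.

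Between the sexes, 14 of 10651 genes tested in OPC differed (0.131%) by edgeR's quasi-likelihood test at an adjusted p under 0.05, with 9 up in males (0.0845%) and 5 up in females (0.0469%). Among the 14, 7 were entries of X-inactivation or Y-linked genes that check the labels, and Xist has 2 of these entries because the table lists an exon of it separately. Eif2s3y, on the Y chromosome, had 1427 UMIs in male and 0 in female OPC, and Xist had 4 in male and 12594 in female OPC. The other 7 were Hmgcs1, Gpld1, Gfpt2, Cry1 and Mertk, higher in males, and Kdm6a and Rlbp1, higher in females. Without the 28 cells rich in microglial UMIs the count was again 14, with all 7 among them. The levels that follow are CPM scaled by TMM factors, and the groups are 6 male and 7 female libraries.

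Hmgcs1 (chr13:119690379-119708260, plus strand, GRCm38) encodes the cytosolic synthase of HMG-CoA, an early step of cholesterol synthesis. Its lowest, median and highest levels were 137, 179 and 223 CPM in males and 106, 118 and 145 CPM in females. All males but male 5 lay above all females. The log2 difference was 0.53 ± 0.097 (SE, edgeR adjusted p = 0.00127). Gpld1 (chr13:24943152-24992501, plus strand), a phospholipase that releases GPI-anchored proteins, stood at 242, 268 and 290 CPM in males and 176, 200 and 235 CPM in females. The groups did not overlap, which held with males above for 0.113% of genes tested, and the log2 difference was 0.43 ± 0.080 (edgeR adjusted p = 0.00161). Gfpt2 (chr11:49794178-49838613, plus strand), which opens hexosamine synthesis, stood at 32.7, 44.8 and 49.3 CPM in males and 18.4, 27.8 and 31.7 CPM in females. The groups again did not overlap, though the lowest male and highest female were close (log2 difference 0.74 ± 0.16, edgeR adjusted p = 0.0222).

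Cry1 (chr10:85131700-85185064, minus strand), a repressor of the circadian clock, ran through 29.9, 52.6 and 76.1 CPM in males and 11.3, 29.7 and 35.0 CPM in females. Males spread widely and overlapped with females (log2 difference 0.94 ± 0.20, edgeR adjusted p = 0.0393). Mertk (chr2:128698956-128802894, plus strand), a receptor for phagocytosis, ran through 76.2, 90.3 and 111 CPM in males and 42.5, 65.1 and 82.1 CPM in females, with overlap (0.53 ± 0.12, edgeR adjusted p = 0.0393). On the female side, Kdm6a (chrX:18162575-18279936, plus strand), a histone demethylase that escapes X inactivation, ran through 46.2, 56.4 and 71.4 CPM in males and 81.3, 90.6 and 113 CPM in females. No male reached the lowest female, as for 0.0751% of genes tested, and the log2 difference was -0.70 ± 0.12 (edgeR adjusted p = 1.56e-04). Rlbp1 (chr7:79374870-79387048, minus strand), the gene with the largest fold over other classes, was 444, 509 and 618 CPM in males and 580, 626 and 731 CPM in females. A single male, male 5, lay within the female range. Its log2 difference was -0.31 ± 0.071 (edgeR adjusted p = 0.0393). For 5 of the 7 genes male 5 was the male library nearest to the female mean. Summed astrocyte markers, of which Mertk is not a member here, were 1937 to 2341 CPM in males and 1748 to 2086 CPM in females, with 9 of 9 tested genes higher in males and 0 called; their part in the result was not tested.

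**Figure D4:**
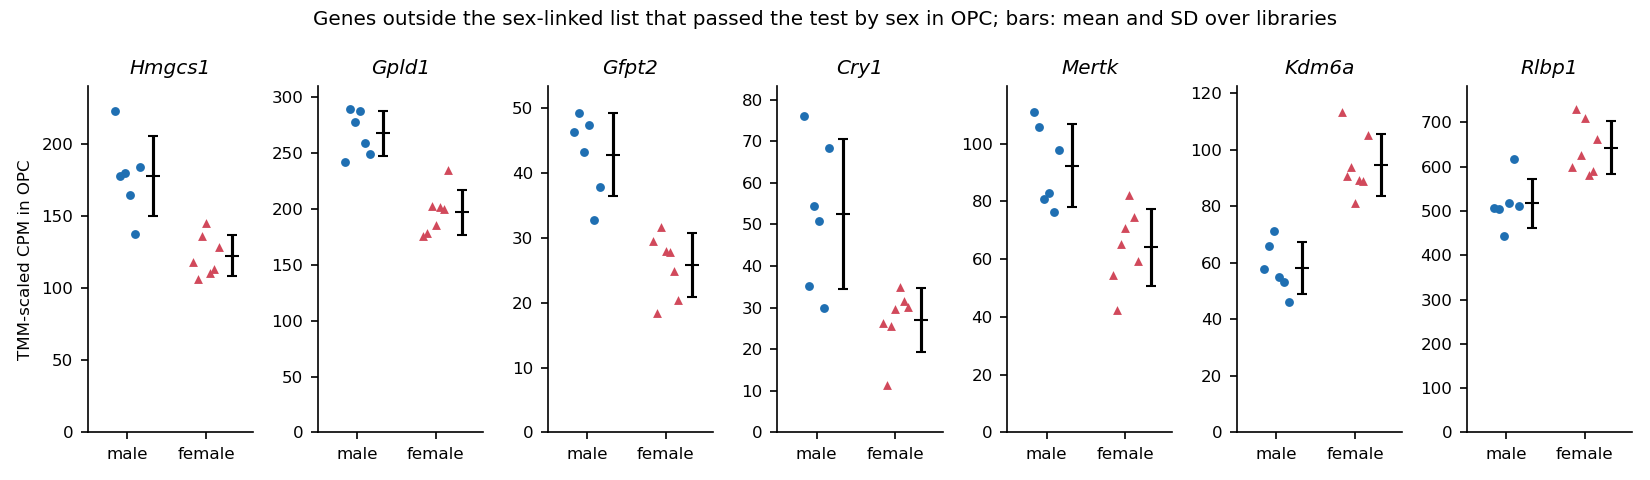
TMM-scaled CPM in OPC of the 7 genes outside the sex-linked list that differed by sex, each point a library; bars are mean and SD, and axes start at 0. Gpld1, Gfpt2 and Kdm6a show no overlap between males and females, while Cry1, Mertk, Hmgcs1 and Rlbp1 overlap in some libraries.

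Hmgcs1, Gpld1 and Kdm6a were called in all the alternatives tried. Gfpt2 lost its call in 7 alternatives (6 of them leaving out male 1, 2 or 4 or female 2, 6 or 7; adjusted p up to 0.136), Cry1 in 11 (up to 0.226), Mertk in 10 (up to 0.330) and Rlbp1 in 9 (up to 0.159).

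Of 24 genes of sterol synthesis and uptake, 23 were tested and 20 (87.0%) were higher in males, against 49.5% of all genes tested. The median log2 difference was 0.37, against -0.00169 over all genes. Hmgcs1 was the only member called. At an unadjusted p under 0.05 there were 16 members higher in males, against 3.27% of all genes tested in that direction. Summed over 19 genes, the unscaled level was 1472 CPM in male 5 and 1847 to 2315 CPM in the other males, and 1246 to 1694 CPM in females. So 5 of 6 males lay above all females, and male 5 lay among them. Without male 5, and with the 9-week libraries alone, 6 members were called. The exceptions were Ebp, Abca1 and Apoe, whose differences were below 0. Abca1 and Apoe export and carry sterols, whereas Ebp is an enzyme of synthesis.

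Astrocytes, the main sterol source of the adult brain, had 21 of 23 members higher in males, with 1 called. Their median was 0.18, against 0.00267 over all genes. Oligodendrocytes had 6 of 23 higher in males with a median of -0.18, against 0.00193 over all genes, and 0 called. The difference between OPC and astrocytes in the sex effect was itself tested, and Hmgcs1 alone was called in it (0.52 ± 0.111, edgeR adjusted p = 0.0149), with an astrocyte value of 0.02. That call was lost with DESeq2 (adjusted p = 0.822) and without male 1, 2 or 6 or female 7 (edgeR adjusted p up to 0.149). Against oligodendrocytes the Hmgcs1 difference was 0.89 (edgeR adjusted p = 0.486). There, 20 of 23 members had a larger male-over-female value in OPC, with 0 called. Their median difference was 0.55, against -0.00797 over all genes. Against astrocytes 18 of 23 members had a larger value in OPC, with a median difference of 0.22, against 0.00635 over all genes.

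**Figure D5:**
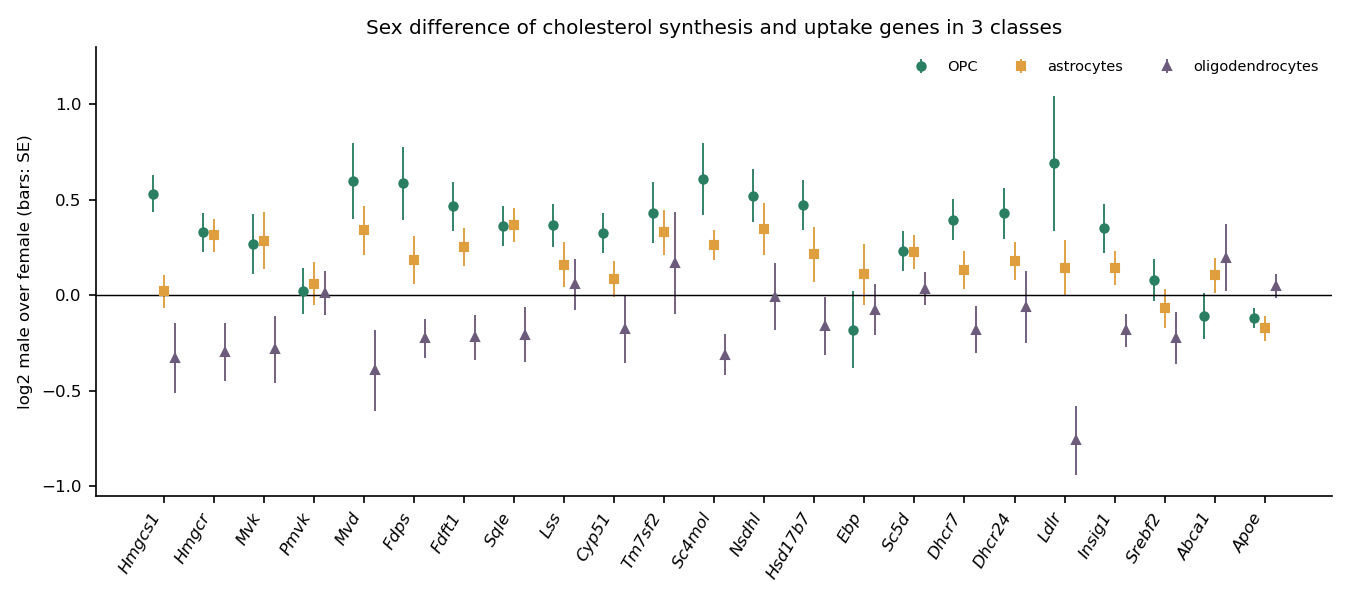
Log2 difference, males over females, of 23 cholesterol genes in OPC (circles), astrocytes (squares) and oligodendrocytes (triangles). Bars are SE derived from edgeR's F statistic, and the line marks 0. In OPC 20 of 23 genes lie above 0, in astrocytes 21 and in oligodendrocytes 6.

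Sterol genes are controlled by SREBP factors, which bind the sterol regulatory element. The letters TCACNCCAC of that element were searched on both strands of RefSeq's GRCm38.p6 promoters, from 250 bases before to 50 after each start. They were present in 408 of 32851 promoters (1.24%) and in 1 of 23 promoters of 18 cholesterol genes (4.35%), that of Hmgcs1. A sequence is shown only where the match was present, which among these 18 genes was Hmgcs1, also the cholesterol gene that was called. The bases before its start, chr13:119690101-119690350 on the plus strand, have the match in capitals from base 114.
Hmgcs1: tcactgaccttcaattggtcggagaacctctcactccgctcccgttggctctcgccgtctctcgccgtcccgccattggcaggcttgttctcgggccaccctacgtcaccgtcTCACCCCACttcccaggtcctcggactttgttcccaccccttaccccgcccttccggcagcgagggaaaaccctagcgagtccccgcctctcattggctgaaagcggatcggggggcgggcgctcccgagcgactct
The match is a description of these letters and says nothing of binding in OPC.

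Of 7 genes known to escape X inactivation, 6 were tested, 5 were higher in females, and Kdm6a was the only one called. The median log2 difference was -0.34, and 5 members had an unadjusted p under 0.05, where 2.81% of all genes tested had one in that direction. Of 17 clock genes tested, Cry1 alone was called, and the median was 0.05. Per2 was 0.54 (unadjusted p = 0.0131) and Nr1d1 -0.42 (unadjusted p = 0.00376), and neither passed after adjustment. Receptors of sex hormones and of prolactin were scarce. Summed over all OPC, Esr1 had 2 male and 7 female UMIs, Pgr 10 and 10, and Prlr 8 and 3, of 5814706 male and 6736837 female UMIs. No Esr2 UMI was found, which at 3 UMIs allows a level of up to 0.516 CPM in males and 0.445 CPM in females. Of 18 hormone receptor and response genes tested, 0 were called by edgeR, with 4 at an unadjusted p under 0.05, where 6.07% of all genes tested had one in either direction.

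Sex differences were compared between OPC and 2 other glial classes by the interaction of class and sex. Against astrocytes 14 of 11545 genes differed (0.121%), 10 with a larger male-over-female value in OPC (0.0866%) and 4 with a smaller one (0.0346%), by edgeR. Sulf2, an extracellular sulfatase, had a log2 difference by sex of 0.21 in OPC and -0.45 in astrocytes, and the difference was 0.64 ± 0.121 (edgeR adjusted p = 0.00331). Tsc22d3, a target of glucocorticoids, differed the other way (-1.09 ± 0.194, edgeR adjusted p = 0.00331). DESeq2 called 0 genes in this comparison, and leaving out single libraries gave 6 to 37. Against oligodendrocytes 12 of 11169 differed (0.107%), 3 larger (0.0269%) and 9 smaller (0.0806%) in OPC. DESeq2 called 4, and leaving out single libraries gave 9 to 42, the last without male 5. Clock genes led those 9. Dbp was 1.66 in oligodendrocytes, and its difference was -1.76 ± 0.271 (edgeR adjusted p = 5.92e-04). In oligodendrocytes Dbp was 7.81 CPM in male 5, 27.4 to 44.4 CPM in the other males and 7.93 to 16.9 CPM in females, so male 5 lay with the females. The labels used here give no time of collection, and its part in the result was not tested.

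Between 8 and 9 weeks of age 0 of 11127 genes differed in OPC (0.0%) by edgeR, with 479 (4.3%) at an unadjusted p under 0.05, and DESeq2 also called 0. With 3 libraries at 8 weeks, of which 2 are male, the comparison carried sex as a covariate.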

How the data were processed

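The authors deposited UMI counts per gene and cell as whole numbers in a table of 16961 genes and 43388 cells, and each cell's name carries its library and class. Per the submitters' processing notes, bcl2fastq 2.17.1.14, STAR 2.5.0a and the mm10 genome were used. The collapsing of UMIs, the choice of cells and the naming of classes are not described in the sources used here. Cells with at least 500 genes were kept, and Scrublet, run in scanpy 1.11.5 per library with an expected rate of 0.05, marked 281 of 24808 (1.13%) as doublets, which were removed. Counts were summed per library and class, with at least 10 cells. Sex, age and class-by-sex were tested with edgeR 4.0.16 (TMM, filterByExpr, robust quasi-likelihood, Benjamini-Hochberg over all genes tested, threshold 0.05), checked on simulated data. DESeq2 1.42.0 and limma 3.58.1 (voom) were alternatives, with other scalings, filters, ages, doublets and each library left out. The SE of a log2 difference was its absolute value divided by the square root of edgeR's F statistic. Shares were tested by exact permutation in scipy 1.17.1.

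Named genes were the given markers, the 25 largest folds, the extremes of each list and of the comparison with newly formed oligodendrocytes, and the genes past a test. Sox10, Gria2, Ptprz1, Bcan and the genes of the 2 ranges were added after their values were seen. The members and lists were chosen with earlier results of these data known. Some genes that the rule names are not reported here. Replicate numbers were not used to pair the libraries in the main fits. Gene positions are from GENCODE M21 on GRCm38 (326 of 334 names matched). The Drop-seq counts are of 3′ ends, so the strand and any shared 3′ end of overlapping genes could not be checked. The alternative without OPC rich in microglial UMIs was chosen after seeing the data.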

Additional observations from a re-analysis of the deposited data

Results flagged for a closer look

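Of 86 groups examined, 5 held a library far from the others by Dixon's criterion, which chance alone meets in about 1 in 20 groups. Cspg4 was 1138 CPM in OPC of male 1 and 834 to 932 CPM in the other males. Stk32a, a kinase, was 167 CPM in female 1 and 115 to 135 CPM in the other females. Cry1 was 11.2 CPM in female 2 and 25.2 to 34.5 CPM in the other females. Summed neuron markers were 1403 CPM in male 3 and 1172 to 1251 CPM in the other males, and summed oligodendrocyte markers were 122 CPM in female 6 and 70.7 to 91.3 CPM in the other females.

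Some sex differences in OPC differed from those in astrocytes by the test of the difference itself (edgeR, log2, male over female). Each first number is the signed value in OPC minus that in the other class, not the size of a sex difference in OPC. The signed male-over-female value was larger in OPC for Sulf2 (0.64, adjusted p = 0.00331) and Fbln5, a matrix protein of elastic fibres (2.29, 0.0149). The same held for Hmgcs1 (0.52, 0.0149) and St3gal6, a sialyltransferase (1.142, 0.0196). The signed value was smaller for Tsc22d3 (-1.09, 0.00331), the clock gene Gm129 (-1.25, 0.00522), the potassium channel Kcnd3 (-1.18, 0.00522) and Rrp8 (-0.89, 0.031). DESeq2 called 0 genes in this comparison. Leaving out single libraries lost Rrp8 in 6 of 13 fits, St3gal6 in 5, Hmgcs1 in 4 (males 1, 2 and 6 and female 7) and Fbln5 in 1 (male 2).

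Against oligodendrocytes the signed male-over-female value was larger in OPC for Fads1, a fatty acid desaturase (0.69, edgeR adjusted p = 0.00326). The same held for Asxl3 (0.92, 0.022) and Spock3, a proteoglycan (1.42, 0.0244). The signed value was smaller for clock genes: Gm129 (-2.36, 1.16e-05), Per3 (-1.91, 1.16e-05), Nr1d2 (-0.96, 2.68e-04), Tef (-0.78, 3.38e-04) and Dbp (-1.76, 5.92e-04). In oligodendrocytes, clock genes of male 5 lay with the females for Dbp, Per3, Gm129, Nr1d2 and Tef. DESeq2 did not call Fads1, Asxl3, Spock3 or Tef, and Asxl3 and Spock3 were each lost in 5 of 13 fits that left out a library. The cause was not tested.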

How the results depend on the processing

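Of the results that answer a comparison, 122 alternative values were classed as the same and 25 as moved. Another 4 were classed as reversed and 1 as stronger. These values include counts of genes, which have no direction or call. For a count, the same refers to its size, and the genes behind it may differ. Genes that differed by sex in OPC numbered 24 with the 9-week libraries alone (17 outside the sex-linked list, against 7), and the genes outside that list numbered 12 without a filter on low counts. Leaving out single libraries gave 10 to 26 genes in all and 3 to 19 outside the list, with 3 without male 1 or female 7, 4 without male 2, female 2 or female 3, 10 without female 5 and 19 without male 5. With the replicate block there were 19 genes, 12 of them outside the list. Correlations of deviations between male and female libraries of the same number ran from -0.0381 to 0.268. Of 6 males, 2 were matched best by their own number, male 1 (0.268) and male 4 (0.11). That check was too weak to settle whether numbers mark pairs. DESeq2 called 0 differences of sex effect against astrocytes and 4 against oligodendrocytes. Leaving out single libraries gave 6 to 37 against astrocytes (37 without male 5, 26 without female 6, 24 without female 1, 23 without male 3, 9 without male 6, 8 without female 2 or 4, 6 without male 1, male 2 or female 3) and 9 to 42 against oligodendrocytes (42 without male 5). By age it gave 0 to 1. The OPC share difference ran from -1.49 to 0.0619 points with single libraries left out, turning direction without male 5. It also turned at 0.0558 over cells other than neurons and at 0.531 with the 9-week libraries alone. The proliferating share difference ran from -3.90 to -2.06, and the ratio of newly formed oligodendrocytes to OPC from -0.00307, without male 3, to 0.0168. The cause of these shifts was not tested. The set of 190 genes at least 2-fold above every other class became 193 with no minimum of genes (185 shared), 183 with doublets kept (182 shared), 171 at 1000 UMIs per cell (158 shared) and 215 with 1 CPM added (190 shared). For single genes 647 values stayed the same, 78 lost their call and 14 folds moved. These pool tested calls with untested folds over the other classes, where the same means a shift under the SD between libraries. Depth limits genes under about 20 CPM.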

Other observations

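Of 69 ribosomal protein genes at 20 CPM or more, 53 (76.8%) were at most 50% of the next class, against 27.1% of all genes, and 1, Rpl13, was highest in OPC, at 607 CPM against 392 CPM in microglia. Of 74 nuclear genes of oxidative phosphorylation, 4 (5.41%) were highest in OPC, against 22.8% of all genes, and 8 (10.8%) were at most 50% of the next class, against 27.1%. Immediate early genes, which mark recent stimulation, were scarce in OPC. The part of the transcription inhibitors used in dissociation was not tested. Of 25, 6 were at 20 CPM or more, against 8642 of all 16961 genes. Among the 6, 0 were highest in OPC, against 22.8% of all genes at that level. Of them, 5 (83.3%) were at most 50% of the next class, against 27.1% of all genes. Ifit2, an interferon-induced gene, was 104 CPM in OPC and was at least 2-fold above every other class. Dcx, a microtubule protein of young neurons, was 114 CPM against 53.1 CPM in neurons.

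By sex, 61 of 77 ribosomal protein genes tested were higher in females, with a median log2 difference of -0.07 (79.2%, against 50.5% of all genes tested), and 55 of 75 genes of oxidative phosphorylation (73.3%), with a median of -0.05. By edgeR 0 of either list were called. At an unadjusted p under 0.05, 2 (2.6%) and 3 (4.0%) members were higher in females, near the 2.81% of all genes tested. Fads1 was higher in all 6 male libraries than in any female library and did not pass after adjustment. All 7 female libraries lay above all males for 8 genes (0.0751%).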
